A study of Mus musculus with 16 samples.

Results

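The 33 genes described here make, sense, move, store and export cholesterol. They were chosen by function from the known pathway, with earlier results of these data known. They fall into 19 enzymes of sterol synthesis, 5 genes of the sterol-sensing control system and 9 genes of transport, storage, efflux and oxysterol sensing. All 33 were among the 19449 genes of the deposited table, and all 33 passed the filter on low counts that left 16269 genes for testing. RNA was taken from the hippocampus of mice labelled 3 months old, in 4 groups of 4 libraries each. KO LPS were Tspo knockout (TSPOKO) mice injected with LPS, WT LPS were wild-type mice injected with LPS, KO PBS were knockout mice injected with PBS, and WT PBS were wild-type mice injected with PBS. LPS is lipopolysaccharide, a bacterial outer membrane component that starts an innate immune response, and PBS is the saline vehicle. The comparisons ask how loss of Tspo changes hippocampal transcripts with and without this stimulus. The dose, route and time of injection, the type of knockout allele and whether libraries came from separate animals are not given in the sources used here, so p-values measure only the spread between these libraries.

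Cholesterol is built from acetyl-CoA through mevalonate, isoprenoid diphosphates, squalene and lanosterol. The blood-brain barrier holds back lipoprotein cholesterol, so the brain relies on its own synthesis, to which astrocytes and myelin-forming oligodendrocytes contribute much. When sterols are scarce in the endoplasmic reticulum, SCAP carries the transcription factor SREBP2, the product of Srebf2, to the Golgi, where it is cut and released to switch on nearly every synthesis enzyme; INSIG proteins hold the complex back when sterols are plentiful. Oxysterols made from cholesterol activate the liver X receptors LXRα and LXRβ (Nr1h3 and Nr1h2), which switch on Abca1, Abcg1, Apoe and Srebf1 and so favour efflux. TSPO, the translocator protein of the outer mitochondrial membrane, binds cholesterol and rises in activated glia.

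Library totals ran from 30198619 to 50009041 counts, and levels are CPM, a gene's count relative to its library's scaled total. Tspo was at 0.486, 0.366, 0.274 and 0.209 CPM in KO LPS and at 2.63, 11.9, 9.4 and 10.1 CPM in WT LPS. It was at 2.33, 0.152, 0.28 and 0.47 CPM in KO PBS and at 2.52, 2.59, 2.06 and 5.17 CPM in WT PBS, so the library labelled KO PBS replicate 1 went against its label. A score of 8 inflammation genes (mean log2 CPM minus the WT PBS mean) was 5.07, 5.03 and 4.99 in WT LPS replicates 2, 3 and 4, but 0.666 in WT LPS replicate 1. In the KO LPS libraries the same score lay between -0.401 and 0.346, against -0.536 to -0.008 in KO PBS. WT LPS replicate 1 thus stood apart from its group, and results are given below with and without it. Ddx3y, a Y-linked transcript, was at 53.0 to 66.2 CPM in 6 libraries, 2 of KO LPS, 1 of WT LPS, 2 of KO PBS and 1 of WT PBS, and at no more than 0.0336 CPM in the other 10. The single WT LPS library with Ddx3y was replicate 1, and the single one in WT PBS was replicate 4, so sex and the missing inflammatory readout cannot be told apart within WT LPS. Choroid plexus markers were nearly lost in WT LPS replicate 1 and WT PBS replicate 1, with scores of -4.09 and -3.99 against -0.134 to 2.54 in the other 14 libraries.

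Per kilobase of transcript, the 33 genes covered a wide range of levels. Apoe, the lipoprotein that carries cholesterol between brain cells, was far above the rest with a level of 1020 CPM per kilobase, at percentile 99.9 of the 15559 tested genes with a transcript length. Hmgcs1 followed with a level of 63.2 CPM per kilobase and Srebf2 with 50.8. The efflux pump Abca1 (4.78) and the oxysterol receptor Nr1h3 (1.71 CPM per kilobase) were the lowest, Nr1h3 at percentile 22.9. The other 28 genes had levels between 7.1 and 35.0 CPM per kilobase.

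In wild-type mice, LPS was followed by lower transcripts of the synthesis pathway. Of the 33 genes, 11 fell and 1 rose in WT LPS against WT PBS (adjusted p under 0.05 in edgeR's quasi-likelihood test over all genes), and 21 did not pass. Among all genes tested, 8.57% passed in this comparison, 3.85% as lower and 4.72% as higher. The groups did not overlap for 7 of the 33 genes, 6 lower and 1 higher, where 8.62% of all genes were apart in this way, 4.41% as lower and 4.22% as higher. Of the 19 enzymes 10 fell, and all 19 log2 fold changes were negative, with a median of -0.425, against 0.002 over all genes. The enzymes that fell lay along the whole route, with Hmgcs1, Mvd, Idi1 and Fdps before squalene and Sqle, Cyp51, Msmo1, Nsdhl, Sc5d and Dhcr7 after it.

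**Figure D1:**
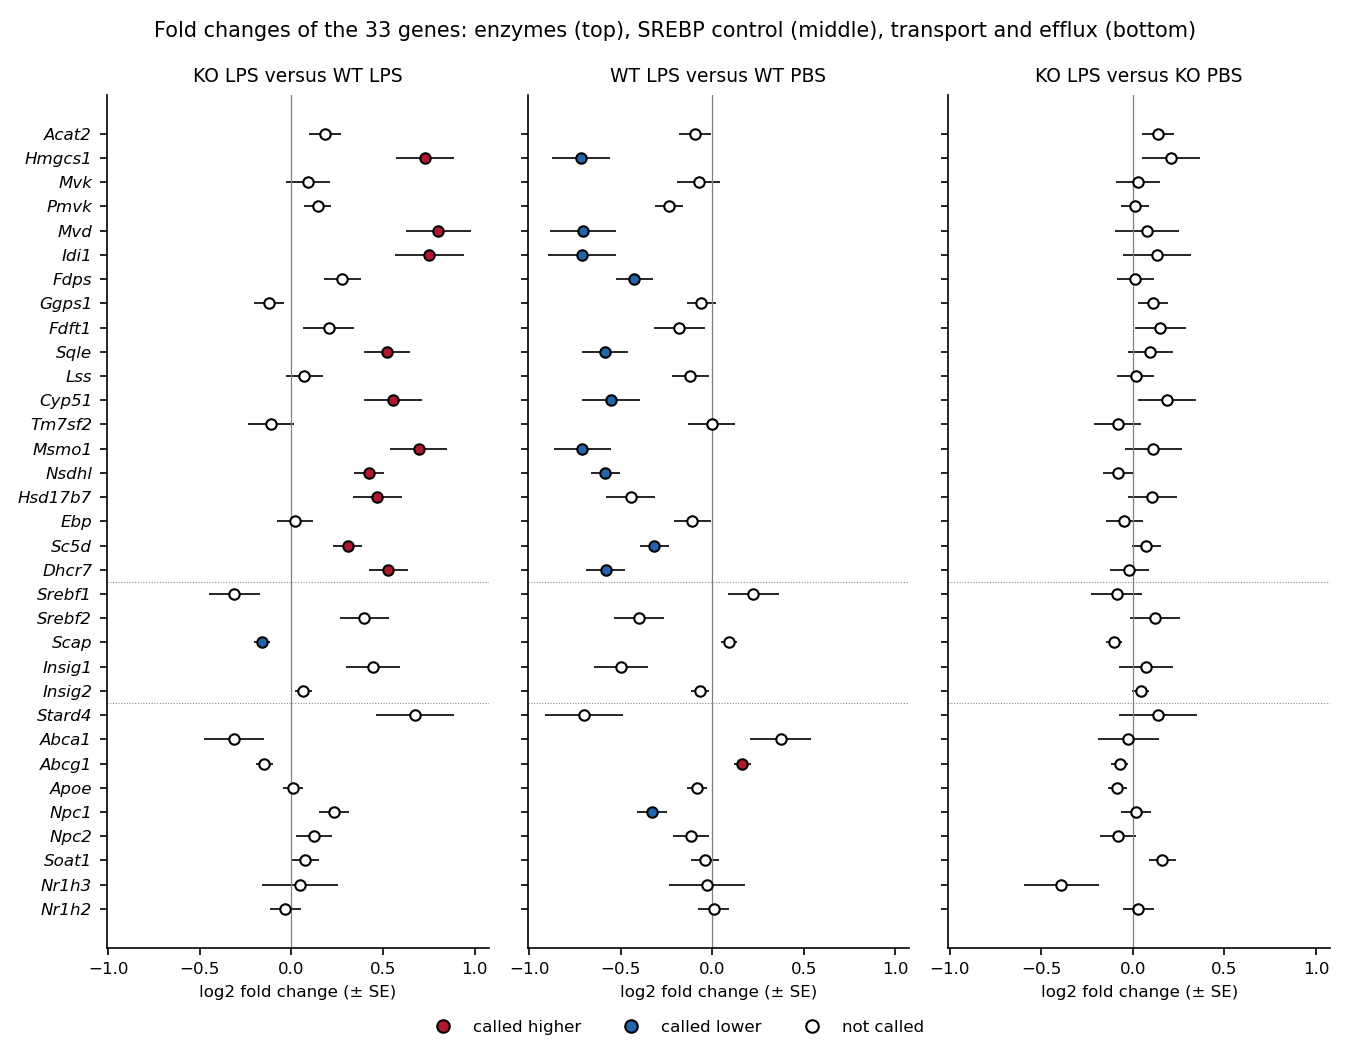
Log2 fold change with its SE for each of the 33 genes in KO LPS versus WT LPS, WT LPS versus WT PBS and KO LPS versus KO PBS, from edgeR; filled points passed at an adjusted p of 0.05 and open points did not. The left panel has 10 enzymes filled as higher and the middle panel 10 as lower, and no point is filled in the right panel.

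In mice given LPS, the knockout stood above the wild type in the same pathway. Of the 33 genes, 10 were higher in KO LPS than in WT LPS, 1 was lower and 22 did not pass, where 11.9% of all genes passed, 4.61% as higher and 7.28% as lower. The groups did not overlap for 7 of the 33 genes, 6 higher and 1 lower, where 14.3% of all genes were apart in this way, 7.35% as higher and 6.98% as lower. All 10 higher genes were synthesis enzymes, and Scap was the lower one. The median log2 fold change of the 19 enzymes was 0.308, with 17 of 19 positive, against -0.002 over all genes. The 2 negative ones were Ggps1 (-0.12 ± 0.08, SE), which branches off the sterol route towards geranylgeranyl lipids, and Tm7sf2 (-0.11 ± 0.13). Both this comparison and WT LPS against WT PBS rest on the same 4 WT LPS libraries.

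Hmgcs1 (chr13:119690379-119708260, GRCm38, plus strand) encodes the cytosolic synthase that makes HMG-CoA, the precursor of mevalonate. It was at 219, 224, 258 and 278 CPM in KO LPS, 212, 116, 145 and 119 CPM in WT LPS, 196, 199, 235 and 218 CPM in KO PBS and 274, 244, 249 and 205 CPM in WT PBS. Every KO LPS library was above every WT LPS library, and 3 of the 4 WT LPS libraries were below all others, with replicate 1 inside the WT PBS range. The log2 fold change was 0.73 ± 0.16 (SE; adjusted p = 0.0116) in KO LPS against WT LPS and -0.72 ± 0.16 (adjusted p = 0.0145) in WT LPS against WT PBS.

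Mvd (chr8:122433601-122443422, minus strand), which decarboxylates mevalonate diphosphate to isopentenyl diphosphate, had 13.6, 17.3, 17.2 and 22.3 CPM in KO LPS and 14.8, 8.92, 8.84 and 7.88 CPM in WT LPS. In the PBS groups it had 16.3, 16.3, 18.3 and 15.9 CPM in KO PBS and 19.4, 15.9, 15.5 and 15 CPM in WT PBS. WT LPS lay below WT PBS without overlap, narrowly so for replicate 1, while KO LPS and WT LPS overlapped through KO LPS replicate 1 and WT LPS replicate 1. The log2 fold change was 0.80 ± 0.18 (adjusted p = 0.0125) in KO LPS against WT LPS and -0.71 ± 0.18 (adjusted p = 0.0255) in WT LPS against WT PBS. Idi1 (chr13:8885501-8892451, plus strand), the isomerase that turns isopentenyl into dimethylallyl diphosphate, had 46.8, 51.2, 55.5 and 68.4 CPM in KO LPS, 48.7, 27.7, 31.1 and 24.3 CPM in WT LPS, 47.2, 46.9, 57 and 51.2 CPM in KO PBS and 60.8, 55.7, 57.6 and 41.2 CPM in WT PBS. It differed by 0.75 ± 0.19 (adjusted p = 0.0193) in KO LPS against WT LPS and by -0.71 ± 0.19 (adjusted p = 0.0295) in WT LPS against WT PBS, and WT LPS replicate 1 again sat with the PBS libraries. Idi1 shares 18.8% of its 31-base transcript words with other counted genes, mainly the pseudogene Gm13502, so its count is less certain.

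Fdps, which joins isoprenoid units to farnesyl diphosphate, had 38.3, 39.6, 40.5 and 45.5 CPM in KO LPS, 41.9, 29.3, 32.9 and 31 CPM in WT LPS, 37.9, 39.3, 45 and 40.1 CPM in KO PBS and 50.8, 45.1, 42.7 and 42.8 CPM in WT PBS. All 4 WT LPS libraries were below all 4 WT PBS libraries, and the gene fell by 0.42 ± 0.10 on the log2 scale (adjusted p = 0.0194). In KO LPS against WT LPS its change of 0.28 ± 0.10 did not pass (adjusted p = 0.0839), and WT LPS replicate 1 was higher there than 3 of the KO LPS libraries.

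Sqle (chr15:59315077-59331192, plus strand), the monooxygenase that forms squalene epoxide and is a rate-setting step, had 51.1, 57.7, 59.7 and 64.5 CPM in KO LPS, 51.6, 32.9, 41.2 and 36.7 CPM in WT LPS, 48.2, 52.4, 62.6 and 54.8 CPM in KO PBS and 69.1, 60, 60 and 54.6 CPM in WT PBS. Its log2 fold change was 0.52 ± 0.12 (adjusted p = 0.0164) in KO LPS against WT LPS and -0.59 ± 0.12 (adjusted p = 0.0111) in WT LPS against WT PBS. WT LPS and WT PBS did not overlap for Sqle. Cyp51 (chr5:4081145-4104746, minus strand), the demethylase that acts on lanosterol, had 54.4, 63.6, 65.1 and 76.5 CPM in KO LPS, 60, 32.8, 41.9 and 42 CPM in WT LPS, 56, 54.5, 65.6 and 52 CPM in KO PBS and 74, 66.9, 67 and 51 CPM in WT PBS. It differed by 0.56 ± 0.16 (adjusted p = 0.0358) in KO LPS against WT LPS and by -0.55 ± 0.16 (adjusted p = 0.0444) in WT LPS against WT PBS, the value closest to the threshold among the enzymes that fell.

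Msmo1 (chr8:64718139-64733792, minus strand), the C4-methyl sterol oxidase, had 64.8, 70.3, 72.6 and 84.8 CPM in KO LPS, 63.8, 35, 44.8 and 37 CPM in WT LPS, 65.5, 61.2, 77.3 and 66.8 CPM in KO PBS and 79, 76.7, 77.3 and 62 CPM in WT PBS. KO LPS was above WT LPS in every library, by 0.70 ± 0.16 (adjusted p = 0.0128), and the change in WT LPS against WT PBS was -0.71 ± 0.16 (adjusted p = 0.0136). Nsdhl (chrX:72918557-72958514, plus strand), the dehydrogenase of the same demethylation complex, had 15.7, 15.8, 16 and 15.3 CPM in KO LPS, 13.5, 9.78, 12.5 and 11.2 CPM in WT LPS, 16.7, 16.6, 17.2 and 15.9 CPM in KO PBS and 18.4, 17.1, 17.4 and 17.3 CPM in WT PBS. The WT LPS libraries, replicate 1 included, were below all 12 others. Nsdhl had the smallest p of the 33 genes in both comparisons, with 0.42 ± 0.08 (adjusted p = 0.006) in KO LPS against WT LPS and -0.58 ± 0.08 (adjusted p = 0.00251) in WT LPS against WT PBS.

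Hsd17b7, the ketosteroid reductase that completes C4 demethylation, had 19.3, 25.3, 25.6 and 29.5 CPM in KO LPS, 21.2, 16.7, 19 and 15.2 CPM in WT LPS, 19.4, 23.5, 25.4 and 24.3 CPM in KO PBS and 25.7, 25.3, 26.6 and 20.3 CPM in WT PBS. It was higher in KO LPS than in WT LPS by 0.47 ± 0.13 (adjusted p = 0.0357), and its -0.45 ± 0.14 in WT LPS against WT PBS did not pass (adjusted p = 0.0543). Sc5d, the desaturase that makes 7-dehydrodesmosterol or 7-dehydrocholesterol, had 70, 75.1, 77.2 and 80.2 CPM in KO LPS, 68.3, 58.5, 57.5 and 60.1 CPM in WT LPS, 67.4, 71.5, 75.9 and 72.5 CPM in KO PBS and 80.2, 78.6, 81.7 and 63.4 CPM in WT PBS. Its changes were the smallest among the enzymes that passed in both comparisons, 0.31 ± 0.08 (adjusted p = 0.0216) in KO LPS against WT LPS and -0.32 ± 0.08 (adjusted p = 0.0233) in WT LPS against WT PBS.

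Dhcr7 (chr7:143823145-143848410, plus strand) encodes the reductase that removes a ring double bond of 7-dehydro sterols, and its loss in humans causes Smith-Lemli-Opitz syndrome. It had 33.7, 34, 31.5 and 35.2 CPM in KO LPS, 30, 21.8, 22.8 and 18.6 CPM in WT LPS, 34.9, 32.2, 36.6 and 32.6 CPM in KO PBS and 37.1, 35.3, 32.9 and 34.1 CPM in WT PBS. The WT LPS group did not overlap any other group. The log2 fold change was 0.53 ± 0.11 (adjusted p = 0.00772) in KO LPS against WT LPS and -0.58 ± 0.11 (adjusted p = 0.00577) in WT LPS against WT PBS.

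**Figure D2:**
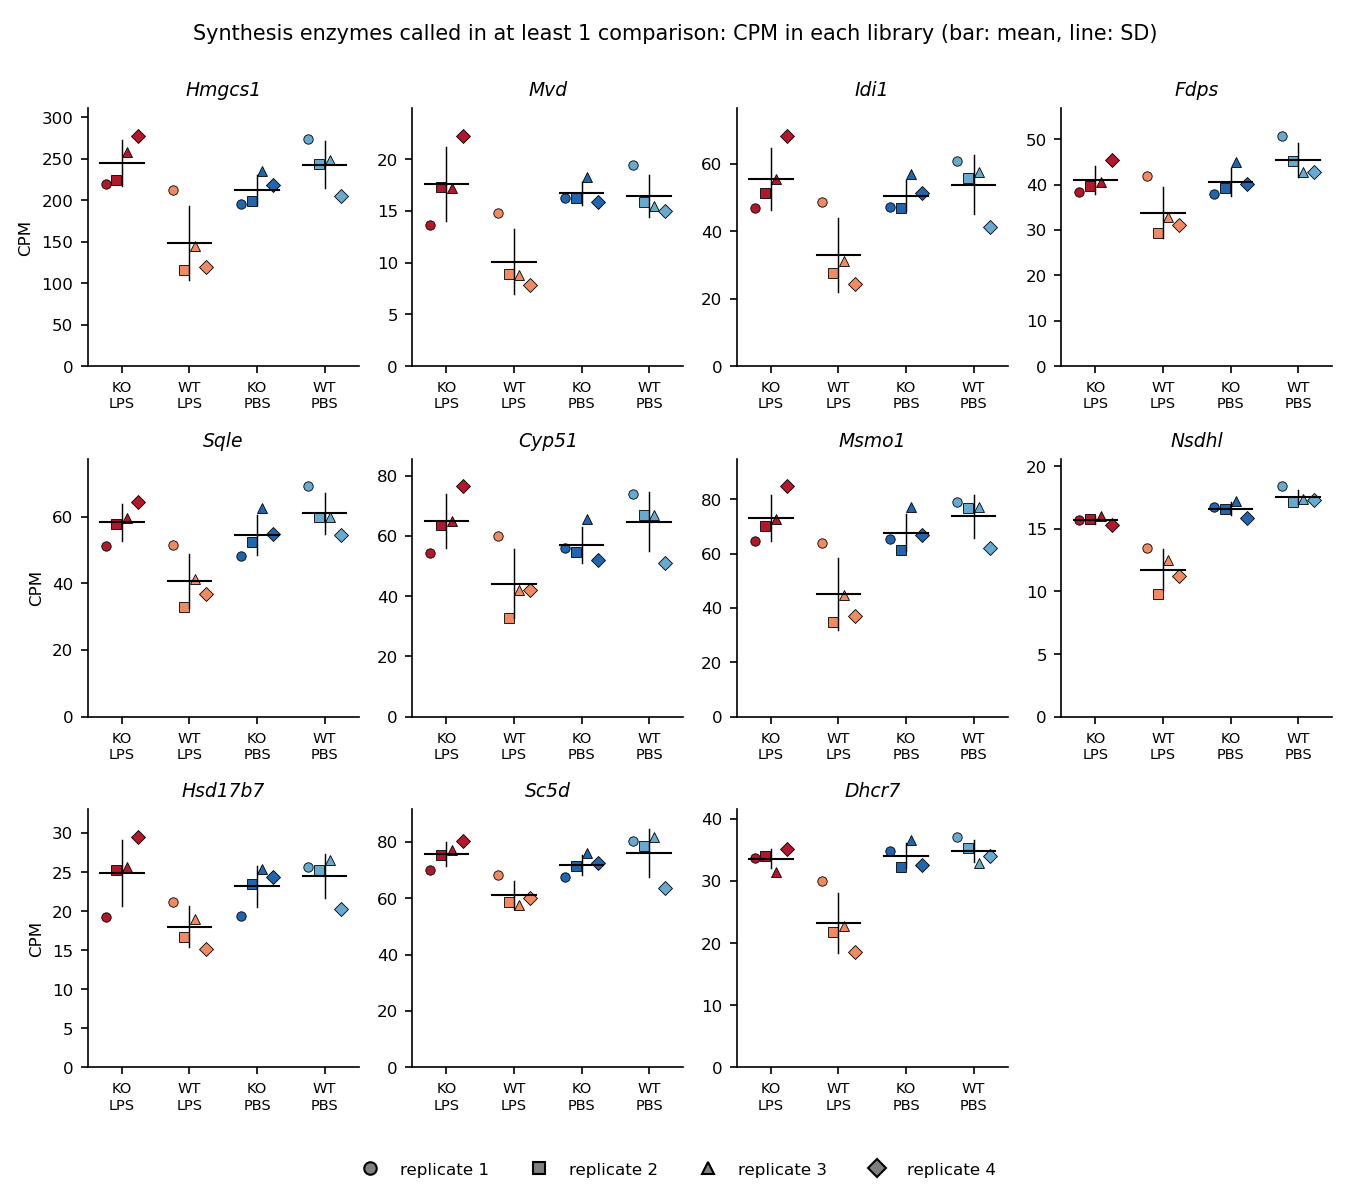
CPM of the 11 synthesis enzymes that passed in at least 1 comparison, one point per library with the replicate shown by the marker shape, horizontal bars for the group mean and vertical lines for the SD (n = 4). WT LPS replicates 2 to 4 lie lowest in each panel, and WT LPS replicate 1 (circle) lies above them.

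The other 8 enzymes passed in neither comparison. Their log2 fold changes in WT LPS against WT PBS ran between -0.24 ± 0.08 (Pmvk, phosphomevalonate kinase) and -0.00 ± 0.13 (Tm7sf2, a C14 sterol reductase). In KO LPS against WT LPS they ran between -0.12 ± 0.08 (Ggps1) and 0.20 ± 0.14 (Fdft1, squalene synthase). Acat2, the thiolase at the start of the route, had 37.7 to 42.2 CPM in KO LPS and 32.5 to 37.5 CPM in WT LPS, groups that did not overlap, but 0.18 ± 0.09 did not pass (adjusted p = 0.184). Intervals of the others still held modest changes: for Mvk, mevalonate kinase, the 95% interval in WT LPS against WT PBS was -0.33 to 0.18, for Lss, lanosterol synthase, -0.33 to 0.10, and for Ebp, a sterol isomerase, -0.32 to 0.11. Counts of some of these are uncertain. Acat2 shares 43.7% of its 31-base transcript words with Acat3. Fdft1 overlaps Ctsb on the opposite strand over 18.3% of its exon bases; Ctsb averaged 17673.6 counts a library against 2481.4 for Fdft1, its change in WT LPS against WT PBS was 0.15 ± 0.05 (adjusted p = 0.0813), and the library kit is not stated to keep strand. Tm7sf2 shares 12.8% of its words with other counted genes, mainly its neighbour Vps51.

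Seen library by library, the low values of the enzymes fell in the same libraries. The score of the 19 enzymes (mean log2 CPM minus the WT PBS mean) was -0.162, -0.045, -0.044 and 0.109 in KO LPS, -0.092, -0.567, -0.358 and -0.546 in WT LPS, -0.174, -0.119, 0.04 and -0.138 in KO PBS, and 0.142, 0, 0.019 and -0.161 in WT PBS. WT LPS replicates 2, 3 and 4 were the 3 lowest of the 16 libraries, and replicate 1 was inside the range of every other group. In replicates 2, 3 and 4 of WT LPS, 16, 12 and 16 of the 19 enzymes were below every WT PBS library, compared with 5 of 19 in WT LPS replicate 1. In the KO LPS libraries this number was 8, 3, 5 and 2, and KO LPS replicate 4 had 7 enzymes above every WT PBS library. In the KO PBS libraries, which had no LPS, it was 9, 7, 1 and 6, so 3 of them had more enzymes below every WT PBS library than WT LPS replicate 1 did.

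**Figure D3:**
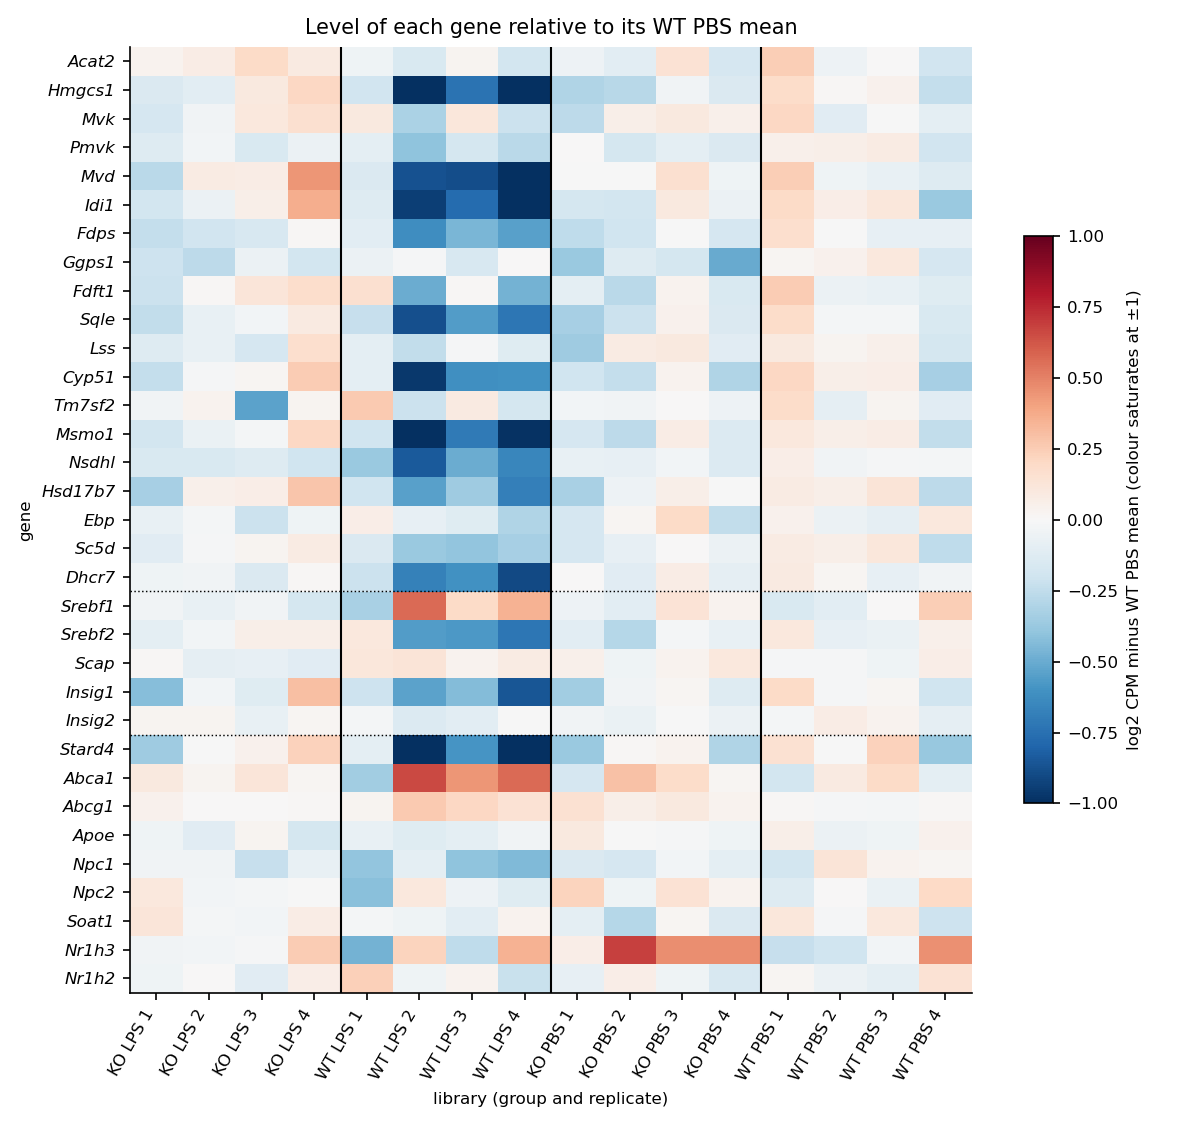
Log2 CPM of each of the 33 genes in each of the 16 libraries, minus that gene's WT PBS mean; the colour saturates at 1 in either direction. WT LPS replicates 2 to 4 carry the darkest blue cells among the enzymes, Srebf2, Insig1 and Stard4, and the red cells of Srebf1 and Abca1.

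Without WT LPS replicate 1, 18 of the 33 genes passed in KO LPS against WT LPS, 14 as higher and 4 as lower, where 24.3% of all genes passed. All 11 earlier calls were among them, and Fdps, Srebf1, Srebf2, Insig1, Stard4, Abca1 and Abcg1 were added. In WT LPS against WT PBS the count was then 19, with 16 lower and 3 higher, where 20.5% of all genes passed; the 12 earlier calls remained and Pmvk, Hsd17b7, Srebf1, Srebf2, Insig1, Stard4 and Abca1 were added. Hmgcs1 then differed by 0.96 ± 0.12 in KO LPS against WT LPS and by -0.94 ± 0.12 in WT LPS against WT PBS. Among the 10 libraries without Ddx3y, which leave 2 KO LPS, 3 WT LPS, 2 KO PBS and 3 WT PBS, 14 genes passed in KO LPS against WT LPS, where 13.6% of all genes passed, and 18 in WT LPS against WT PBS, where 23.1% did. With sex, read from Ddx3y, as a covariate the counts were 8 and 16, where 8.58% and 8.4% of all genes passed, and Cyp51, Hsd17b7 and Scap no longer passed in KO LPS against WT LPS. The pair of wild-type libraries with Ddx3y, WT LPS replicate 1 and WT PBS replicate 4, had enzyme scores of -0.092 and -0.161.

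The counts also moved when other libraries were left out. In KO LPS against WT LPS, 7, 7 and 5 genes passed without WT LPS replicates 2, 3 and 4, where 6.64%, 5.23% and 5.85% of all genes passed. Without KO LPS replicates 1, 2, 3 and 4 the counts were 13, 8, 7 and 6. Of all genes, 9.27%, 7.72%, 6.28% and 8.02% passed there. Leaving out 1 of the 8 PBS libraries gave 11 or 12, where 10.8% to 14.1% of all genes passed. In WT LPS against WT PBS, 6, 4 and 5 genes passed without WT LPS replicates 2, 3 and 4, where 4.62%, 3.28% and 4.23% of all genes passed. Without WT PBS replicates 1, 2, 3 and 4 the counts were 7, 5, 6 and 15. Of all genes, 8.36%, 3.79%, 3.76% and 9.91% passed there. Leaving out 1 of the 8 knockout libraries gave 10 to 13, where 7.84% to 9.38% of all genes passed. With WT PBS replicates 2 and 3, the closest pair of libraries, summed to 1, the count was 6, where 4.05% passed. A fit of only the 8 libraries compared called 0 of the 33 genes in either comparison by edgeR's quasi-likelihood test. At an unadjusted p under 0.05 there were 18 and 17, and 2.74% and 0% of all genes passed. That fit has fewer residual degrees of freedom and does not share the spread of the other groups. The SD of Srebf2 was 54.2 CPM in WT LPS, against 12.8 in KO LPS, 17.9 in KO PBS and 16.1 in WT PBS. For Apoe it was 28.6 CPM in WT LPS, against 64.9, 48.8 and 48.7. Where WT LPS spreads more widely, the shared estimate can make p-values too small. The part of each in the lost calls was not tested. With DESeq2 on all libraries the counts were 16 in KO LPS against WT LPS and 17 in WT LPS against WT PBS, where 17.1% and 12.9% of all genes passed.

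In the knockout, LPS and PBS were not distinguished for any of these genes. KO LPS against KO PBS had 0 of 33 calls by edgeR's quasi-likelihood test and 0 by DESeq2, where 0% and 0.0185% of all genes passed. The groups did not overlap for 0 of 33 genes, where 6.55% of all genes were apart, 3.04% as higher and 3.51% as lower. Of the 33, 2 genes, Scap and Soat1, had an unadjusted p under 0.05, and the smallest adjusted p was 0.703. The median log2 fold change of the 19 enzymes was 0.077, against -0.013 over all genes. The 95% interval was -0.13 to 0.55 for Hmgcs1, -0.25 to 0.09 for Nsdhl and -0.25 to 0.21 for Dhcr7, so none of these intervals reached the change seen in the wild type. For Mvd it was -0.30 to 0.45 and for Msmo1 -0.22 to 0.44. The knockout libraries with LPS also lacked the inflammatory readout described above.

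Without LPS, the genotypes were likewise not distinguished. KO PBS against WT PBS had 0 of 33 calls by edgeR and 0 by DESeq2, where 0.0369% and 0.105% of all genes passed. The edgeR share was 0.0307% as higher and 0.00615% as lower. Ggps1 alone had an unadjusted p under 0.05 by edgeR (-0.29 ± 0.08, adjusted p = 0.918). The enzyme median was -0.081, with 18 of 19 negative, against 0.005 over all genes. Among the 10 libraries without Ddx3y, Ggps1 passed as lower by edgeR (adjusted p = 0.05 when rounded), where 0.115% of all genes passed. The enzyme median was then -0.198. That fit held 2 KO PBS libraries, among them the one labelled replicate 1, whose Tspo went against its label. Abcg1 was the 1 gene whose groups did not overlap, at 84.2 to 91.2 CPM in KO PBS and 81.1 to 82.9 CPM in WT PBS; over all genes 3.28% were apart in this sense, 1.46% as higher and 1.82% as lower. Without the library labelled KO PBS replicate 1, this comparison and KO LPS against KO PBS again had 0 calls.

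The difference between the LPS effects of the genotypes was tested as an interaction. The enzyme median was 0.437, meaning a larger value in the knockout, with 18 of 19 positive, against -0.01 over all genes. Nsdhl passed at the threshold (0.50 ± 0.11, adjusted p = 0.05 when rounded) and was the 1 call among 33, where 1.15% of all genes passed, 0.553% as higher and 0.596% as lower; 18 of the 33 genes had an unadjusted p under 0.05. Hmgcs1 had the largest value, 0.92 ± 0.23 (adjusted p = 0.0547), followed by Idi1 at 0.84 ± 0.26 and Stard4 at 0.84 ± 0.30. Without WT LPS replicate 1 the count was 17, with 14 higher and 3 lower, where 16.1% of all genes passed, while leaving out any of the other 15 libraries gave 0 calls, or 7 for WT PBS replicate 4, where 5.75% of all genes passed. With DESeq2 the count was 11, where 7.87% of all genes passed, and with sex as a covariate it was 0, where 0.246% did.

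Promoter sequence was searched for motifs of the factors known to drive these enzymes. SREBP proteins bind sterol regulatory elements and usually work with the CCAAT-binding factor NF-Y. In the RefSeq promoters of GRCm38.p6 (27 of the 33 genes matched), the bases before each start site, up to 250, were searched on both strands for TCACNCCAC, a form of the sterol regulatory element, and for CCAAT. TCACNCCAC was found in 1 of the 27 genes, Hmgcs1, and in 1.22% of all 27025 genes with a promoter. CCAAT was found in 15 of 16 synthesis enzymes, 93.8%, and in 37.5% of all genes; it was in 8 of 8 enzymes that fell in WT LPS against WT PBS and in 7 of 8 that did not pass there. A gene with several promoters counts as holding a motif when 1 of them does. The 200 bases before the start site are shown for the 6 enzymes with the smallest p in WT LPS against WT PBS that had an entry, 5′ to 3′ on the gene's strand, with TCACNCCAC, CCAAT and its reverse complement ATTGG in capitals. Hmgcs1 lies at chr13:119690151-119690350 (plus), Nsdhl at chrX:72918321-72918520 (plus), Dhcr7 at chr7:143822967-143823166 (plus, the most upstream of its entries), Msmo1 at chr8:64733579-64733778 (minus), Sc5d at chr9:42264301-42264500 (minus) and Mvd at chr8:122443423-122443622 (minus).
Hmgcs1: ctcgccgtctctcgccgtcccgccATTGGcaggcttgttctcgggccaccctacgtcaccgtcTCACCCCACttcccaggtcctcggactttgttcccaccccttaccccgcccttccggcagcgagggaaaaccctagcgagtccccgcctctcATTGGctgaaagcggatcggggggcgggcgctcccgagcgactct
Nsdhl: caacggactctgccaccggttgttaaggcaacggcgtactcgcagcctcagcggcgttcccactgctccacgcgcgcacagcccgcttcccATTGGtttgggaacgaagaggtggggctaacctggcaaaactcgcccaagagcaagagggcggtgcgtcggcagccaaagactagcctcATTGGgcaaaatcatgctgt
Dhcr7: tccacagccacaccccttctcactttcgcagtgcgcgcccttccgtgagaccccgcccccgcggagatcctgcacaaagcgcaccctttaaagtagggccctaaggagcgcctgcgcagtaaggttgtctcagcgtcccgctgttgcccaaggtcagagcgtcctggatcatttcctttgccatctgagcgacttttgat
Msmo1: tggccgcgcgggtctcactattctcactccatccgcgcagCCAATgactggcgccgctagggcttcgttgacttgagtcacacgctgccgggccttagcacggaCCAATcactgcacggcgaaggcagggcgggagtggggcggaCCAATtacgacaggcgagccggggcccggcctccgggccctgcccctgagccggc
Sc5d: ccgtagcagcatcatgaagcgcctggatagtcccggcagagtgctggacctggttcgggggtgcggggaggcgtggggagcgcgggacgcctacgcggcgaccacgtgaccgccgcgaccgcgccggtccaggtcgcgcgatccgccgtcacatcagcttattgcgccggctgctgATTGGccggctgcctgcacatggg
Mvd: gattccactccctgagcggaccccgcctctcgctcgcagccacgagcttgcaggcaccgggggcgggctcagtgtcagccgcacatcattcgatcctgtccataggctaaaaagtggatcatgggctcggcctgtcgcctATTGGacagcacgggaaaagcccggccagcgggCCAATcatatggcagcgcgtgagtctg
In Hmgcs1 the sterol element began 137 bases before the start site, between ATTGG boxes that began 176 and 45 bases before it. Nsdhl had boxes 109 and 20 bases before its start, Msmo1 had 3 at 160, 96 and 55 bases, Mvd had 2 at 60 and 27 bases and Sc5d had 1 at 24 bases. The Dhcr7 stretch held neither motif. A match describes letters in this window and does not show binding.

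Of the 5 control genes, 0 passed in WT LPS against WT PBS and only Scap passed in KO LPS against WT LPS, by edgeR's quasi-likelihood test; 2 and 4 of them had an unadjusted p under 0.05. Srebf2 (chr15:82147181-82205379, plus strand) was at 236, 247, 262 and 262 CPM in KO LPS, 271, 171, 169 and 153 CPM in WT LPS, 234, 206, 248 and 238 CPM in KO PBS and 271, 237, 240 and 260 CPM in WT PBS. WT LPS replicates 2 to 4 were below all other libraries, while replicate 1 shared the highest value, and neither 0.40 ± 0.14 in KO LPS against WT LPS (adjusted p = 0.0684) nor -0.40 ± 0.14 in WT LPS against WT PBS (adjusted p = 0.0823) passed. Without WT LPS replicate 1 these were 0.62 ± 0.07 (adjusted p = 2.79e-05) and -0.62 ± 0.07 (adjusted p = 2.77e-05).

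Insig1 (chr5:28071363-28078662, plus strand), a sterol-sensing brake whose gene is itself an SREBP target, had 52.2, 68.8, 64.4 and 86.5 CPM in KO LPS, 60.7, 48.4, 51.9 and 38.8 CPM in WT LPS, 55.1, 68.4, 71 and 64.2 CPM in KO PBS and 80.1, 69.5, 70.9 and 61.2 CPM in WT PBS. All WT LPS libraries were below all WT PBS libraries, replicate 1 by less than 1 CPM, but -0.50 ± 0.15 missed the threshold (adjusted p = 0.0517), as did 0.45 ± 0.15 in KO LPS against WT LPS (adjusted p = 0.064). Insig2, the relative of Insig1, lay between 40.6 and 47.1 CPM in all 16 libraries, with -0.07 ± 0.05 in WT LPS against WT PBS.

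Srebf1, which encodes the relative that mainly drives fatty acid genes, had fold changes of the opposite sign to those of Srebf2. It had 59.3, 57.6, 59.2 and 53.8 CPM in KO LPS, 48.5, 89.9, 69.4 and 77.2 CPM in WT LPS, 58.7, 56.3, 66.9 and 62.3 CPM in KO PBS and 54.7, 56.5, 61 and 72.1 CPM in WT PBS. WT LPS held both the lowest library, replicate 1, and the 2 highest, and neither -0.31 ± 0.14 in KO LPS against WT LPS nor 0.22 ± 0.14 in WT LPS against WT PBS passed; without replicate 1 they were -0.46 ± 0.10 (adjusted p = 0.00421) and 0.37 ± 0.10 (adjusted p = 0.0169). Scap, the escort protein, had 101, 94.6, 95 and 93 CPM in KO LPS, 109, 110, 103 and 107 CPM in WT LPS, 104, 97.7, 103 and 108 CPM in KO PBS and 99.6, 100, 97.7 and 105 CPM in WT PBS. It was lower in KO LPS than in WT LPS by a small step, -0.16 ± 0.04 (adjusted p = 0.029), with no overlap, and its 0.09 ± 0.04 in WT LPS against WT PBS did not pass.

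Among the genes of efflux, Abca1 and Abcg1 had fold changes of the opposite sign to those of the enzymes. Abca1 (chr4:53030787-53159895, minus strand), which loads cholesterol onto apolipoproteins, had 47.5, 45.3, 48.3 and 45 CPM in KO LPS, 34.8, 70.2, 60.3 and 65.8 CPM in WT LPS, 39.5, 54.5, 50.6 and 45.1 CPM in KO PBS and 39.1, 47.3, 50.7 and 41.4 CPM in WT PBS. WT LPS replicates 2 to 4 were the highest 3 libraries and replicate 1 the lowest of all 16, so that 0.37 ± 0.17 in WT LPS against WT PBS and -0.31 ± 0.17 in KO LPS against WT LPS did not pass; without replicate 1 they were 0.55 ± 0.10 (adjusted p = 0.00173) and -0.49 ± 0.10 (adjusted p = 0.00353). Abcg1 (chr17:31057675-31117988, plus strand), a second exporter, had 84.4, 82.4, 82 and 82.9 CPM in KO LPS, 83.7, 98.6, 94.6 and 90.6 CPM in WT LPS, 91.2, 85.5, 87.9 and 84.2 CPM in KO PBS and 82.7, 81.4, 81.1 and 82.9 CPM in WT PBS. It rose in WT LPS against WT PBS by 0.16 ± 0.05 (adjusted p = 0.043), all 4 libraries being above all 4 controls. In KO LPS against WT LPS, -0.15 ± 0.05 did not pass (adjusted p = 0.0527).

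Apoe had 1140, 1080, 1190 and 1040 CPM in KO LPS, 1120, 1080, 1100 and 1140 CPM in WT LPS, 1250, 1170, 1160 and 1140 CPM in KO PBS and 1220, 1130, 1130 and 1210 CPM in WT PBS. No difference was detected, and the 95% interval was narrow, -0.11 to 0.12 in KO LPS against WT LPS and -0.20 to 0.03 in WT LPS against WT PBS. Nr1h3, coding for LXRα, was low, at 2.68, 2.68, 2.71 and 3.28 CPM in KO LPS, 1.95, 3.2, 2.29 and 3.5 CPM in WT LPS, 2.87, 4.43, 3.81 and 3.79 CPM in KO PBS and 2.32, 2.38, 2.69 and 3.78 CPM in WT PBS. It had 64 to 160 counts a library, and its 95% interval was wide, -0.47 to 0.41 in WT LPS against WT PBS. The part of low counts in that width was not tested. Nr1h2, coding for LXRβ, had 37.2 to 51.2 CPM over the 16 libraries and 0.01 ± 0.09 in that comparison.

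**Figure D4:**
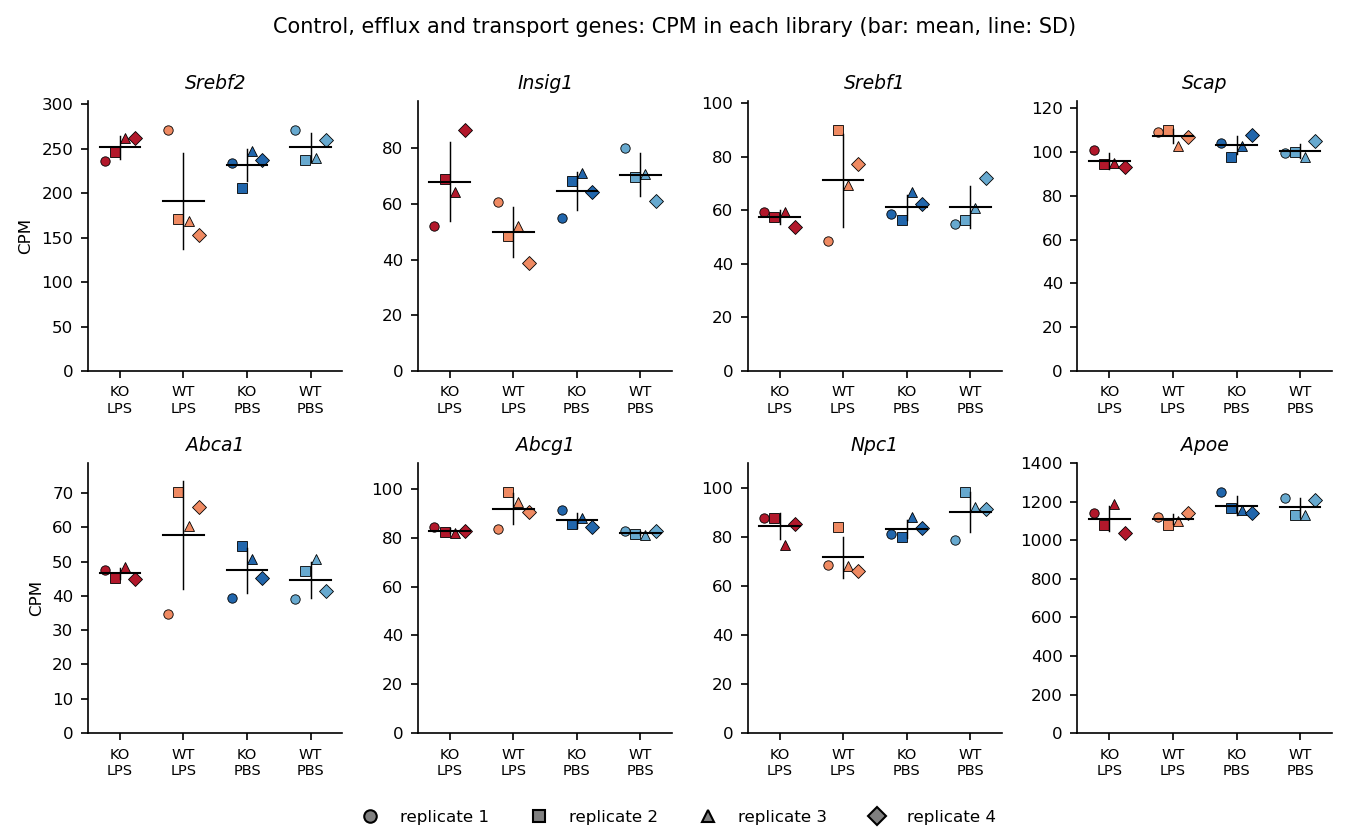
CPM of 4 control genes and 4 transport or efflux genes, one point per library with the replicate shown by the marker shape, horizontal bars for the group mean and vertical lines for the SD (n = 4). WT LPS replicate 1 (circle) lies apart from the other WT LPS libraries for Srebf2, Srebf1, Abca1 and Abcg1, and Apoe shows no separation of groups.

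Stard4, which shuttles sterol between membranes and is itself an SREBP target, had 23.5, 30.1, 31.1 and 35.4 CPM in KO LPS, 28.1, 14, 20.1 and 13.3 CPM in WT LPS, 23.3, 30.4, 31 and 24.5 CPM in KO PBS and 33.5, 30.2, 35.5 and 23.1 CPM in WT PBS. Its log2 fold changes, 0.68 ± 0.21 (adjusted p = 0.0517) and -0.70 ± 0.21 (adjusted p = 0.0553), were close to those of Idi1 but missed the threshold in KO LPS against WT LPS and in WT LPS against WT PBS. Npc1, the lysosomal exporter of cholesterol, had 88, 87.7, 76.8 and 85.6 CPM in KO LPS, 68.6, 84.3, 68.2 and 66.4 CPM in WT LPS, 81.4, 80.1, 88.4 and 84 CPM in KO PBS and 79.1, 98.4, 92.4 and 91.4 CPM in WT PBS. It fell by 0.33 ± 0.08 in WT LPS against WT PBS (adjusted p = 0.0215), and here replicate 1 was with the low libraries and replicate 2 was the exception. Its partner Npc2, with 42.2 to 66.1 CPM over all libraries, and Soat1, the enzyme that esterifies cholesterol for storage, with 34.6 to 45.9 CPM, passed in no comparison.

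Markers of oligodendrocytes moved with the enzymes. Of 12 such markers, 9 fell in WT LPS against WT PBS and 9 were higher in KO LPS than in WT LPS. Of all genes, 8.57% and 11.9% passed in these 2 comparisons, shares that stand beside every marker count below. None of the 12 oligodendrocyte markers was at 0 in any library. Their score was -0.255 to -0.074 in KO LPS, -0.894, -0.44, -1.165 and -1.566 in WT LPS, -0.23 to 0.044 in KO PBS and -0.364 to 0.141 in WT PBS, and their summed level was 7328 to 8072 CPM in KO LPS, 3543 to 8442 CPM in WT LPS, 6927 to 8724 CPM in KO PBS and 7144 to 9441 CPM in WT PBS. In bulk tissue fewer cells of a type and less RNA per cell cannot be told apart. The order of libraries differed between the scores: WT LPS replicate 1 had a low oligodendrocyte score (-0.894) with an enzyme score of -0.092, and WT LPS replicate 2 had the mildest oligodendrocyte score of its group (-0.44) with the lowest enzyme score (-0.567). Beyond these values, the part of oligodendrocytes in the enzyme result was not tested. Of 10 markers each in KO LPS against WT LPS, 2 astrocyte markers were higher and 2 lower, and 1 microglia marker was higher and 5 lower. There, 4 endothelial markers were lower and 1 neuron marker was higher, where 4.61% of all genes passed as higher and 7.28% as lower. Of the same 10 each in WT LPS against WT PBS, 1 astrocyte marker rose and 2 fell, and 4 microglia markers rose and 1 fell. Among the rest, 1 endothelial marker rose and 2 fell, and 0 neuron markers passed, where 4.72% of all genes passed as higher and 3.85% as lower. Counts of 0 or 1 among 10 are near these shares. Of 9 markers of neighbouring brain regions, 0 passed in KO LPS against WT LPS, with a median of 1.135, and 2 fell in WT LPS against WT PBS, with a median of -0.609. Their score was -0.33 to 0.275 in KO LPS, -1.19 to -0.664 in WT LPS, -1.49 to 1.12 in KO PBS and -0.72 to 0.612 in WT PBS, so the LPS groups did not overlap while KO PBS and WT PBS each reached into the WT LPS range; their summed level was 232.1 to 470.3 CPM in KO LPS, 120.3 to 215.6 CPM in WT LPS, 103.1 to 544.8 CPM in KO PBS and 146.1 to 676.1 CPM in WT PBS, and Gabra6 was at 0 in at least 1 library. Of 8 leukocyte and blood markers, 3 were lower in KO LPS than in WT LPS and 4 rose in WT LPS against WT PBS, with scores of -1.48 to 0.408 in KO LPS, -0.722 to 1.5 in WT LPS, -0.974 to -0.202 in KO PBS and -0.663 to 0.431 in WT PBS. The part of these cells and regions in the enzyme result was not tested. All 8 inflammation genes rose in that comparison and were lower in KO LPS than in WT LPS.

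**Figure D5:**
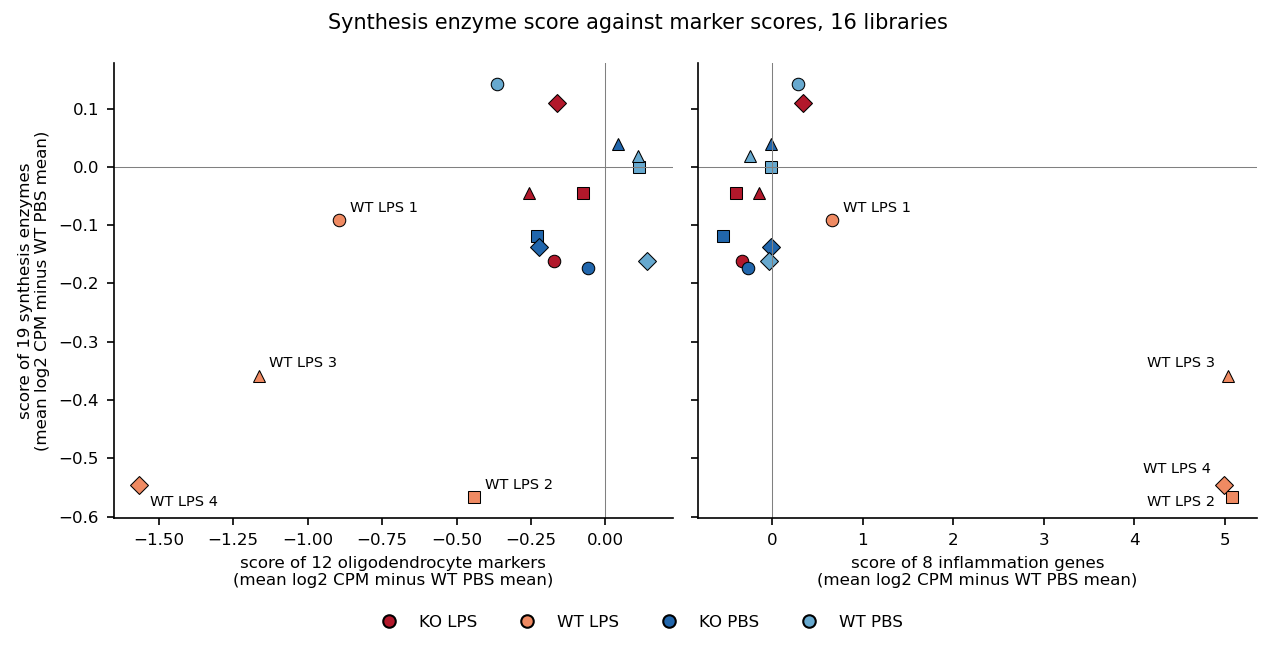
Score of the 19 synthesis enzymes (vertical axis) against the score of 12 oligodendrocyte markers (left) and of 8 inflammation genes (right), one point per library, coloured by group, with marker shapes for replicates 1 (circle), 2 (square), 3 (triangle) and 4 (diamond). WT LPS replicates 2 to 4 are lowest on the vertical axis and near 5 on the inflammation axis, while WT LPS replicate 1 has an enzyme score of -0.092 and an inflammation score of 0.666.

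A letter and number in the sample titles, whose meaning the labels do not give, is shared by WT LPS replicates 2 to 4 and KO PBS replicate 4. KO PBS replicate 4 had an enzyme score of -0.138 and 218 CPM of Hmgcs1, against -0.567 to -0.358 and 116 to 145 CPM in those 3 WT LPS libraries. WT LPS replicate 1 and WT PBS replicate 4 share another code. Otherwise code and group cannot be told apart.

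Genes next to the pathway were read from lists also chosen with results of these data known. Of 12 fatty acid synthesis and desaturation genes that SREBP1 drives, 8 were higher in KO LPS than in WT LPS and none lower, while 8 fell and none rose in WT LPS against WT PBS, where 11.9% and 8.57% of all genes passed. Their medians were 0.292 and -0.335. Scd2, the main stearoyl-CoA desaturase of brain, differed by 0.40 ± 0.07 (adjusted p = 0.0036) and -0.44 ± 0.07 (adjusted p = 0.00304) in these comparisons, Scd1 by 0.63 ± 0.13 and -0.68 ± 0.13, and Me1, a source of NADPH, by 0.27 ± 0.06 and -0.40 ± 0.06. Acly, which supplies cytosolic acetyl-CoA, was higher in KO LPS by 0.32 ± 0.07, and Elovl6, a fatty acid elongase, fell by 0.59 ± 0.12 in WT LPS against WT PBS. Srebf1, the gene of their activator, had 0.22 ± 0.14 in WT LPS against WT PBS. Of the 12, 3 passed the interaction, Scd2 (0.51), Scd1 (0.84) and Me1 (0.37).

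Of 28 other sterol-handling genes, 3 were lower in KO LPS than in WT LPS and 2 rose in WT LPS against WT PBS, shares below the 11.9% and 8.57% of all genes that passed. Without WT LPS replicate 1, 6 and 4 of the 28 passed, 21.4% and 14.3%, against 24.3% and 20.5% of all genes. Apod, a lipocalin that carries small lipids, was at a mean of 161 CPM in KO LPS and 801 CPM in WT LPS (-2.32 ± 0.46, adjusted p = 0.00674) and rose by 2.10 ± 0.45 in WT LPS against WT PBS (187 CPM). Clu, an apolipoprotein of astrocytes, was at 682 CPM in KO LPS and 913 CPM in WT LPS (-0.42 ± 0.11) and rose by 0.40 ± 0.11 in WT LPS against WT PBS. Gramd1a, a membrane-contact sterol carrier, was lower in KO LPS than in WT LPS by a smaller step (-0.23 ± 0.07).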

How the data were processed

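Per the labels, total RNA was extracted with an RNeasy mini plus kit and libraries were made with a NEBNext Ultra kit. The authors deposited a table of estimated counts per gene and library, in which every value was a whole number; per the submitters' processing notes, MultiQC 1.13, Salmon 1.9.0, DESeq2 and DESeq were used, in roles they do not describe. No build is named in these sources. Gene names and positions came from GENCODE M21 (GRCm38); 105 identifiers were not in it.

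Genes were filtered with filterByExpr of edgeR 4.0.16 (R 4.3.3), keeping 16269 genes and 99.97% of counts. With TMM scaling and all 16 libraries in 1 model with a mean per group (biological coefficient of variation 0.177), the quasi-likelihood F test was used, with Benjamini-Hochberg adjustment over all genes and a threshold of 0.05. An SE is the log2 fold change divided by the root of F. Log2 CPM used a prior count of 2. The level per kilobase divides mean CPM by the median length of basic protein-coding transcripts. The procedure was tested on simulated data. Molecular identifiers are not mentioned in the labels, so duplicate reads may be counted.

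The members and lists were chosen with earlier results of these data known. All 33 genes are named; those that passed, with Srebf2, Srebf1, Insig1, Abca1, Apoe and Nr1h3, are given in every library, and of the 2 neighbouring lists up to 4 passing genes with the smallest p. Stard4 was added to these after its values were seen. Promoters are RefSeq's on GRCm38.p6. WT PBS replicates 2 and 3 were the closest pair (chi-square per degree of freedom 3.78, others 12.3 to 113). This is above sampling noise but does not show that they came from separate animals. They were kept as 2 samples. Alternatives used RLE scaling, DESeq2 1.42.0, limma 3.58.1 (voom with sample weights), other filters, the replicate block, other sets of libraries and sex. Those with sex, and the set without WT LPS replicate 1 and WT PBS replicate 1, were chosen after seeing the data. The set without WT LPS replicate 1 and KO PBS replicate 1 likewise leaves out libraries that stood out by values of these same data.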

Additional observations from a re-analysis of the deposited data

Results flagged for a closer look

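Among the 132 combinations of a gene and a group of 4 libraries, 9 held a library far from the other 3, where chance gives about 1 in 20. Of these, 3 were in WT PBS replicate 4, the WT PBS library with Ddx3y, where Pmvk was at 21.9 CPM (25.8 to 26.4 in the others), Msmo1 at 62 CPM (76.7 to 79) and Sc5d at 63.4 CPM (78.6 to 81.7). Another 2 were in KO LPS replicate 3, with Tm7sf2 at 12.6 CPM (17.8 to 18.7) and Insig2 at 42.4 CPM (45.2 to 45.5). The rest were Mvk in the library labelled KO PBS replicate 1 (12.2 CPM, others 15.2 to 15.6), Npc1 in WT LPS replicate 2 (84.3 CPM, others 66.4 to 68.6), Npc2 in KO LPS replicate 1 (60.9 CPM, others 55.6 to 56.2) and Nr1h3 in KO LPS replicate 4 (3.28 CPM, others 2.68 to 2.71). WT LPS replicate 1 was in none of the 9.

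Of the 33 genes, Nsdhl was the 1 that passed the interaction test, with a log2 difference of 0.5026, where 1.15% of all genes passed. Its adjusted p in edgeR's quasi-likelihood test was 0.05 when rounded, and it was called in 7 of 27 alternatives. Hmgcs1 had a larger difference, 0.92, which did not pass (adjusted p = 0.0547).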

How the results depend on the processing

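The number of the 33 genes called moved by more than 1.5 times under these settings. In KO LPS against WT LPS (11 calls) it was 19 with limma-voom and sample weights, where 25% of all genes passed. With only the libraries compared it was 0, where 2.74% of all genes passed. It was 18 without WT LPS replicate 1 and KO PBS replicate 1 together, where 23.7% of all genes passed. Without WT LPS replicate 1 and WT PBS replicate 1 it was 18, where 24.4% passed. When each library was left out it was 5 to 18, where 5.23% to 24.3% of all genes passed. In WT LPS against WT PBS (12 calls) it was 19, 0, 19 and 19 under the same settings. Of all genes, 28.8%, 0%, 19.9% and 18.8% passed there. With WT PBS replicates 2 and 3 summed it was 6, where 4.05% of all genes passed. When each library was left out it was 4 to 19, where 3.28% to 20.5% passed. In KO PBS against WT PBS (0 calls) it was 1 with limma-voom and 1 among the 10 libraries without Ddx3y. Of all genes, 1.89% and 0.115% passed there. For the interaction (1 call) it was 11 with DESeq2, 19 with limma-voom and 12 among the libraries without Ddx3y. Of all genes, 7.87%, 24.8% and 11% passed there. It was 15 without WT LPS replicate 1 and KO PBS replicate 1, where 14.6% of all genes passed. Without WT LPS replicate 1 and WT PBS replicate 1 it was 15, where 14.3% passed. It was 0 with RLE scaling, no filter, a CPM filter or sex as a covariate. The shares of all genes there were 0.387%, 0.201%, 0.288% and 0.246%. With WT PBS replicates 2 and 3 summed it was 0, where 0% passed. When each library was left out it was 0 to 17, where 0% to 16.1% passed. KO LPS against KO PBS had 0 calls in all of these runs. The cause of these shifts was not tested. Some of the fits hold fewer libraries, and the part of that was not tested either.

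The median of the 19 enzymes kept its sign in every alternative and moved beyond the spread between libraries (pooled SD 0.146) once, to -0.574 in WT LPS against WT PBS among the libraries without Ddx3y. Of the named genes, none that was called changed sign. Deviations of same-numbered libraries from their group means had correlations of -0.232 to 0.364, above 0.1 in 3 of 24 pairs. The highest was between WT PBS replicate 1 and WT LPS replicate 1. Whether the numbers pair libraries is not given in the labels and cannot be settled by these correlations. With the replicate block 10 genes were called in KO LPS against WT LPS, 10 in WT LPS against WT PBS and 0 in the interaction. Of all genes, 9.95%, 6.57% and 0% passed there. With 4 libraries a group, the intervals of the genes that did not pass still hold small changes, and that of Nr1h3 was wide.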
